A study of Mus musculus with 2 samples.

Results

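The sirtuin family was followed in mature mouse oocytes from slimmed mothers and from mothers kept as controls. Its 7 genes, Sirt1 to Sirt7, were found by gene symbol in a deposited table of 36227 Ensembl genes, and each of the 7 had counts in both libraries. Their identifiers are ENSMUSG00000020063 (Sirt1), ENSMUSG00000015149 (Sirt2), ENSMUSG00000025486 (Sirt3), ENSMUSG00000029524 (Sirt4), ENSMUSG00000054021 (Sirt5), ENSMUSG00000034748 (Sirt6) and ENSMUSG00000025138 (Sirt7). The mothers were female ICR mice, an outbred strain, that were obese at 12 weeks of age in standard housing. For the next 4 weeks the slimming group lived in cages with an enriched environment and the control group stayed in normal cages; the label of the control group also names a standard diet, and the diet of the slimming group is not given there. At 16 weeks, naturally ovulated oocytes at metaphase II were collected from 3 mice per group, 3 oocytes from each animal, and all 9 of a group went into 1 tube and 1 library. Because the animals were pooled, none can be told from another, no difference described here has a replicate check, and no p-value for the groups was computed. In such pools, fewer contributing cells and less mRNA per cell cannot be told apart.

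Sirtuins are enzymes that use NAD to remove acetyl or other acyl groups from lysines of proteins, or, for some members, to transfer ADP-ribose. Because each reaction consumes NAD, their activity is tied to the energy state of the cell. In mammals SIRT1, SIRT6 and SIRT7 act mainly in the nucleus, SIRT2 mainly in the cytosol, and SIRT3, SIRT4 and SIRT5 in mitochondria. In the egg, sirtuins are studied for their part in spindle assembly, mitochondrial function and the response to oxidative stress and ageing. A fully grown egg makes little or no new mRNA, so the transcripts counted here were stored during growth.

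The members are recognised by their shared catalytic core, and the stretch of it that binds NAD is the best place to see how far the 7 mRNAs have diverged. The lines give 45 coding bases of each gene, 5′ to 3′ on the coding strand, from GENCODE vM21 transcripts of build GRCm38, with capitals at the positions where all 7 genes have the same base.
Sirt1: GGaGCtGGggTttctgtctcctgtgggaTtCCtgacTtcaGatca
Sirt2: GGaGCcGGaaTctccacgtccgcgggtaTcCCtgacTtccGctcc
Sirt3: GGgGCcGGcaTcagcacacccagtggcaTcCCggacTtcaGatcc
Sirt4: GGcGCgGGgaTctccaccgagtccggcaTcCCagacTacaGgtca
Sirt5: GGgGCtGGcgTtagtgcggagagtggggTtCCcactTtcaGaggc
Sirt6: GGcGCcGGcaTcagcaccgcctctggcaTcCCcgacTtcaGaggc
Sirt7: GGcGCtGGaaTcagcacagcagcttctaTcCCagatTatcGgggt

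These stretches lie in coding exons. The Sirt4 stretch is in exon 2 of 5 (chr5:115482893-115482937, minus strand) and the Sirt5 stretch in exon 3 of 9 (chr13:43371888-43371932, plus strand). The other 5 are each split by an intron: Sirt1 at chr10:63331862-63335644 (minus strand, exons 8 and 9 of 14), Sirt2 at chr7:28776881-28777021 (plus, exons 5 and 6 of 16), Sirt3 at chr7:140877879-140877997 (minus, exons 2 and 3 of 8), Sirt6 at chr10:81625895-81626530 (minus, exons 2 and 3 of 8) and Sirt7 at chr11:120622185-120624507 (minus, exons 3 and 4 of 10). Identity ran from 18 of 45 bases between Sirt1 and Sirt7 to 37 of 45 between Sirt3 and Sirt6, and the longest identical run in any pair was 14 bases, again between Sirt3 and Sirt6. Across all annotated transcripts of the members, no exact run of 50 bases on the coding strand was shared by any pair of sirtuins. Runs with mismatches were not counted. Sharing with genes outside the family was uneven. Sirt4 and Sirt6 shared none of their 50-base runs with another gene on either strand, Sirt2 shared 0.209%, Sirt1 1.01% and Sirt7 1.44%. Sirt3 shared 10.6%, all with its neighbours Psmd13 and Ric8a on the opposite strand, and Sirt5 14.2%, spread over 721 other genes. How the authors treated strand and reads with several matches is not given in the sources used here, so the counts of Sirt3 and Sirt5 are less certain than those of the others.

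Sirt7, which deacetylates histone H3 and acts on ribosomal RNA genes, had the most counts of the family, 1048 in slimming and 1216 in control oocytes. That is 50.03 and 60.1 CPM, the count scaled to a common library total (counts per 1000000). Sirt1, a deacetylase of histones, p53 and FOXO factors, was next with 710 and 551 counts, or 33.9 and 27.2 CPM. Sirt6, a histone H3 deacetylase of telomeres and DNA repair, followed with 279 and 184 counts, 13.3 and 9.09 CPM. These 3 nuclear members were the only ones to reach 10 CPM in at least 1 library, the level above which a gene was called expressed. The mitochondrial members lay below it. Sirt4, which acts on enzymes of glutamine and pyruvate use, had 172 and 147 counts (8.21 and 7.26 CPM), and Sirt3, the main mitochondrial deacetylase, 126 and 58 (6.01 and 2.87 CPM). Sirt5, which removes succinyl, malonyl and glutaryl groups, had 53 and 25 counts (2.53 and 1.24 CPM). Sirt2, the cytosolic tubulin deacetylase, was close to absent at 1 and 8 counts (0.0477 and 0.395 CPM), where a count of 0 would allow up to 3 counts, or 0.143 CPM in slimming and 0.148 CPM in control oocytes.

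**Figure D1:**
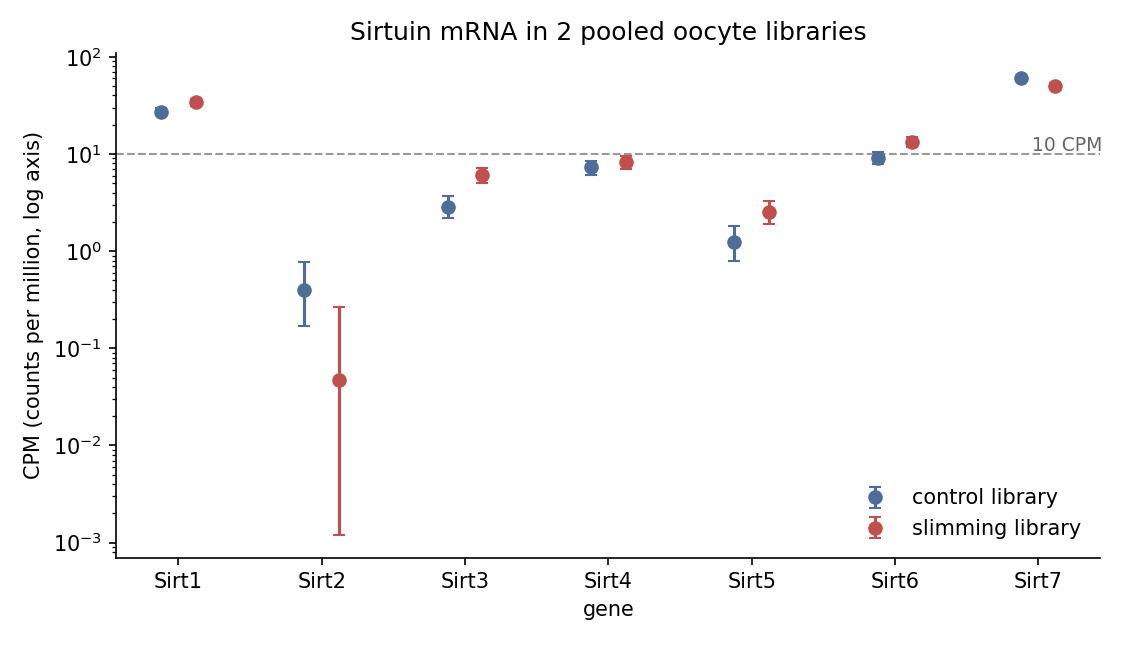
Level of each sirtuin in CPM (log axis) in the control (blue) and slimming (red) library; bars are exact 95% Poisson intervals, which cover counting error only, and the dashed line marks 10 CPM. Sirt7 and Sirt1 lie above the line in both libraries and Sirt6 in the slimming library alone, while Sirt2 lies far below the rest at 0.0477 and 0.395 CPM.

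Levels of different genes were compared per kilobase of the longest annotated transcript, since longer mRNAs can give more reads. The order was the same in both libraries: Sirt7, Sirt1, Sirt6, Sirt4, Sirt3, Sirt5, Sirt2. Sirt7 stood at 15.3 CPM per kilobase in slimming and 18.3 in control oocytes, with 82.9% and 85.6% of the genes that had a count in the same library below it. Sirt1 stood at 7.65 and 6.14, Sirt6 at 7.04 and 4.81 and Sirt4 at 4.58 and 4.05 CPM per kilobase. Not every neighbour in this order was resolved. The counting intervals overlapped between Sirt1 and Sirt6 in the slimming library and between Sirt6 and Sirt4, Sirt3 and Sirt5, and Sirt5 and Sirt2 in the control library. Sirt3 (1.88 and 0.894) and Sirt5 (1.04 and 0.509) were near the middle of the genes with a count, and Sirt2 (0.0225 and 0.187) near the bottom, with 5.03% and 25.0% of them below it. These levels depend on the transcript chosen. Per kilobase of the longest coding transcript, Sirt7 stood at 29.0 and 34.8, Sirt3 at 3.75 and 1.78 and Sirt5 at 1.41 and 0.689. In the slimming library Sirt3 then lay closer to Sirt4, and no counting intervals were computed on that length. The cDNA was primed from the poly(A) tail, and how evenly reads covered each transcript cannot be read from the table.

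Among the nuclear members Sirt1 and Sirt6 were higher and Sirt7 lower in the slimming library, each by less than 1.5-fold. Sirt6 differed most of the 3, at 1.43-fold higher (log2 ratio of slimming over control 0.52, 95% counting interval 0.25 to 0.80). Sirt1 was 1.22-fold higher (log2 0.28, interval 0.12 to 0.45). Sirt7 was 1.23-fold lower (log2 -0.30, interval -0.42 to -0.18). Of the 3 expressed sirtuins, 0 were at least 2-fold apart, beside 4.67% of all 5714 expressed genes, and their median log2 ratio was 0.28 beside 0.02 for the expressed genes. Sirt6 counted as expressed only through the slimming library, where it was higher, so it entered this median by that filter. Over all 7 members the median was also 0.28. Because the nuclear members differed in sign, the nuclear counts summed to nearly the same level, 97.2 CPM in slimming and 96.4 CPM in control oocytes. The log2 ratio of that sum was -0.02 (interval -0.11 to 0.07), and its sign turned with scaling by total count (0.01).

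All 3 mitochondrial members had more CPM in the slimming library. Sirt3 was 2.04-fold higher (log2 1.03, interval 0.58 to 1.51), on 126 against 58 counts. Sirt5 was 1.98-fold higher (log2 0.99, interval 0.29 to 1.75), on 53 against 25 counts. Sirt4, the most abundant of the 3, had a log2 ratio of 0.15, and its interval, -0.18 to 0.47, included equal levels. Summed, the mitochondrial sirtuins had 351 counts (16.8 CPM) in slimming and 230 counts (11.4 CPM) in control oocytes, which gives a log2 ratio of 0.53 (interval 0.29 to 0.78). Whether Sirt3 and Sirt5 passed 2-fold turned on the scaling. With upper-quartile scaling neither did, at log2 0.99 and 0.94. With total-count scaling and with DESeq2 size factors both did, Sirt5 at log2 1.02 and 1.003. The scaled ratio of the authors' deposited table, which is total-count scaling without the added 0.5, put Sirt5 at 1.03. The exons of 2 genes overlap those of Sirt3 on the opposite strand, and both had few counts. Psmd13, a proteasome subunit, had 9 counts in each library, and Ric8a, a chaperone of G protein subunits, had 3 in slimming and 18 in control oocytes. Whether reads of these genes entered the Sirt3 counts was not tested.

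Sirt2, at 1 count in slimming against 8 in control oocytes, had a log2 ratio of -2.58. Its counting interval ran from -8.55 to -0.18 and thus from close to equal to almost absent. Over all 7 members, 5 had more CPM in the slimming library (Sirt1, Sirt3, Sirt4, Sirt5 and Sirt6) and 2 had less (Sirt2 and Sirt7). By the same scaling to the total count, the median expressed gene was itself slightly higher in the slimming library, at log2 0.05. Taking every member with a count, 2 of 7 were at least 2-fold apart, Sirt3 higher and Sirt2 lower, beside 38.6% of all 18017 genes with a count. The counting interval excluded equal levels for 6 of 7 members, beside 46.1% of all genes with a count and 72.9% of the expressed genes. Most expressed genes thus passed this criterion too.

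The differences of the sirtuins were therefore read against genes of the same abundance. Genes with a mean of 30 to 100 CPM, the range of Sirt1 and Sirt7, were at least 2-fold apart in 1.73% of cases, and their log2 ratios ran from -0.61 at the 5th to 0.69 at the 95th percentile. In the range of Sirt6, 10 to 30 CPM, 5.79% were at least 2-fold apart, and in that of Sirt3 and Sirt4, 3 to 10 CPM, 16.3%. For Sirt5, between 1 and 3 CPM, the share was 36.7%, and for Sirt2, under 0.3 CPM, 78.3%. Each of the 7 ratios lay between the 5th and the 95th percentile of its own abundance range. Sirt3 came nearest to its upper limit, at 1.03 against 1.28, followed by Sirt6, at 0.52 against 0.91. On the lower side Sirt7 had the smallest gap in log2 units, at -0.30 against -0.61. Sirt2 was at -2.58 against -3.78, in a far wider range and on very few counts, so the 2 gaps are not alike.

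**Figure D2:**
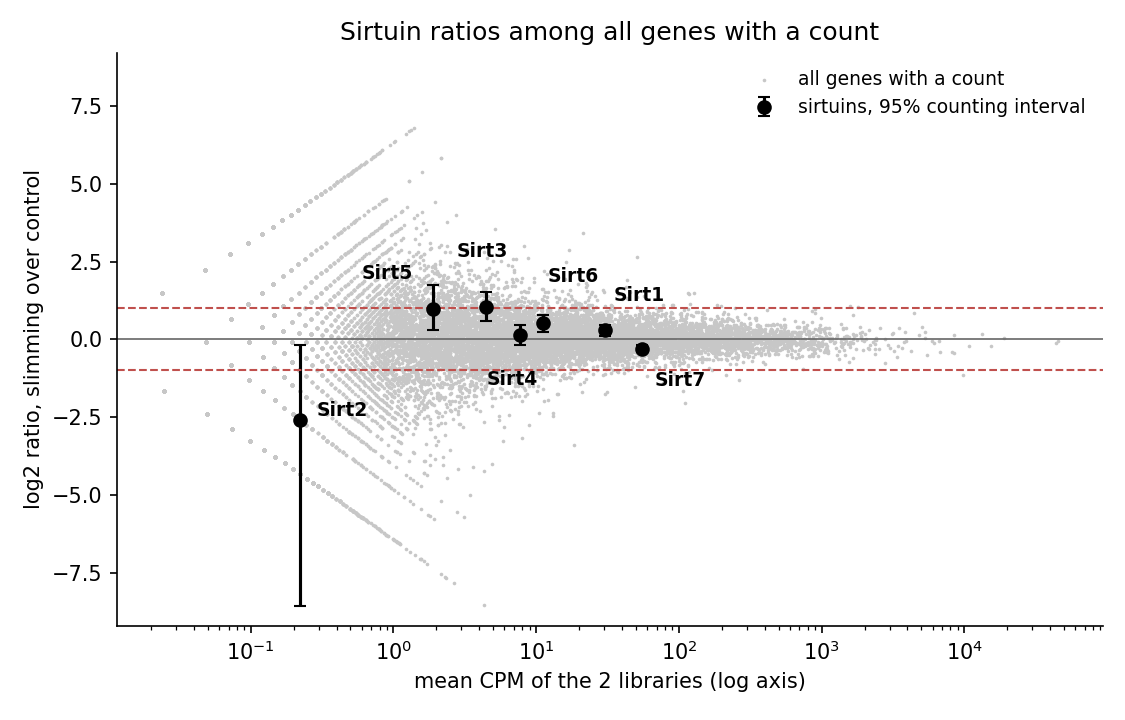
Log2 ratio of slimming over control against the mean CPM of both libraries (log axis) for all genes with a count (grey) and the 7 sirtuins (black, with 95% counting intervals); dashed lines mark 2-fold. The grey cloud widens toward low levels, and each sirtuin lies within it, from Sirt7 at -0.30 and 55.1 CPM to Sirt2 at -2.58 and 0.221 CPM.

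The make-up of the family differed between the libraries, a comparison that needs no scaling of one library to the other. Sirt7 supplied 43.9% of the 2389 sirtuin counts in the slimming library (exact 95% interval 41.9 to 45.9) and 55.6% of the 2189 in the control library (53.4 to 57.6). Sirt1 supplied 29.7% (27.9 to 31.6) and 25.2% (23.4 to 27.0), and Sirt6 11.7% (10.4 to 13.0) and 8.41% (7.28 to 9.65). The intervals of Sirt7, Sirt1 and Sirt6 did not overlap between the libraries. Sirt3 supplied 5.27% (4.41 to 6.25) and 2.65% (2.02 to 3.41), again without overlap. The shares of Sirt4, 7.20% and 6.72%, and of Sirt5, 2.22% and 1.14%, had intervals that overlapped. These intervals cover counting error only. By a similar criterion, the counting interval of the ratio, 72.9% of the expressed genes and 46.1% of all genes with a count excluded equal levels. The shares add up to a whole, so a lower share of Sirt7 raises those of the others. For each count of Sirt7 there was 0.677 of a count of Sirt1 in slimming and 0.453 in control oocytes, and 0.120 and 0.0477 of a count of Sirt3. The family as a whole was close to level, with 114 CPM in slimming and 108 CPM in control oocytes (log2 ratio 0.05, interval -0.04 to 0.13), a sign that turned with upper-quartile scaling.

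**Figure D3:**
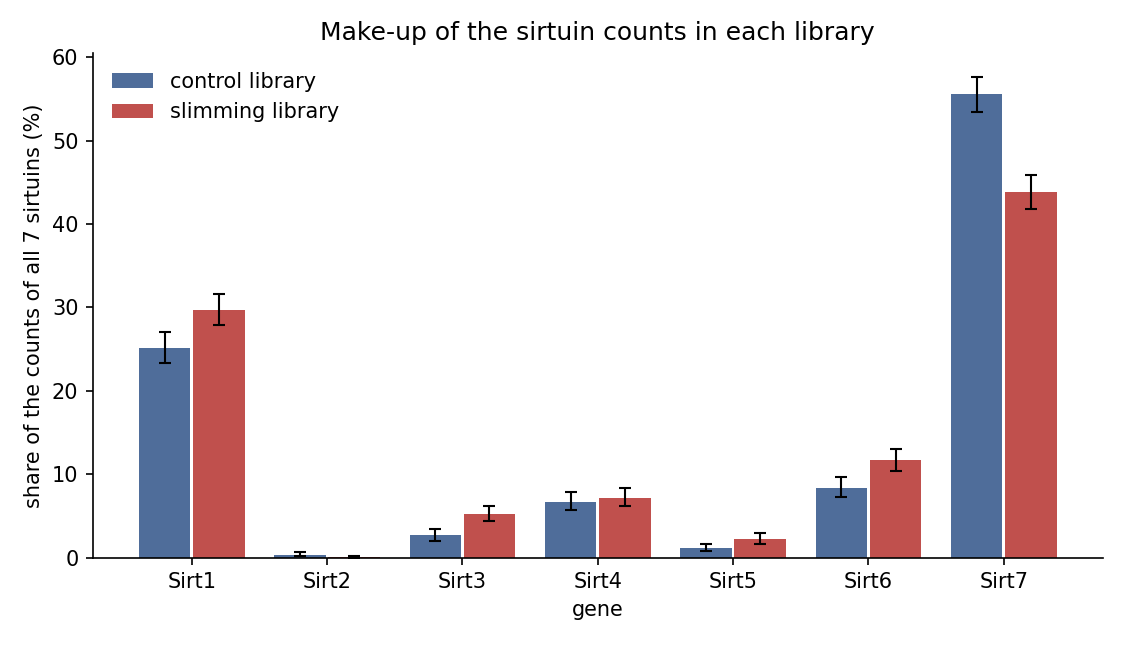
Share of each gene in the counts of all 7 sirtuins (percent) in the control (blue) and slimming (red) library; bars start at 0 and error bars are exact 95% binomial intervals for counting error only. Sirt7 takes 55.6% in the control and 43.9% in the slimming library, where Sirt1, Sirt3 and Sirt6 take larger shares.

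Stored mRNAs of the egg are controlled through their 3′ ends, where a cytoplasmic polyadenylation element (TTTTAT is a common form) can lengthen the poly(A) tail at maturation, the tail from which these libraries were primed. In the longest coding transcript of each member, the last 40 bases held a poly(A) signal, AATAAA or ATTAAA on the coding strand, in 7 of 7 members and in 73.7% of 19644 genes. TTTTAT occurred in the last 100 bases in 13.8% of these genes and in 1 sirtuin. It is shown because Sirt1 alone of the 7 held it, 65 bases before the annotated end, with the motif in capitals.
Sirt1: aaaacagtgTTTTATacttgtatc

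The windows of 250 bases before the annotated start, from RefSeq on GRCm38.p6, were found for all 7 members, with a pair of starts each for Sirt3 and Sirt6. They held from 12 CG dinucleotides (Sirt7) to 39 (Sirt1), beside a median of 6 over 32851 such windows. Sirt2, the member with hardly any counts, held 13, as did Sirt5 and 1 window of Sirt6.

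The genes that make and transport NAD were measured beside the sirtuins that consume it. Of 22 genes of NAD supply found in the table, 18 had a count and 3 were expressed. Of these 3, 1 ratio lay above and 2 below that of the median expressed gene, with a median log2 ratio of -0.04. Of the 3, 0 were at least 2-fold apart, beside 4.67% of all expressed genes, a share at which 3 genes tell little. Nadk, which phosphorylates NAD to NADP, had 310 CPM in slimming and 268 CPM in control oocytes (log2 0.18, interval 0.13 to 0.23). The mitochondrial kinase Nadk2 was level at -0.04, and Slc25a51, the mitochondrial NAD carrier, was at -0.26 (-0.46 to -0.06). Nampt, the rate-limiting enzyme of NAD salvage, was named after its values were seen: it stood at 4.68 and 3.90 CPM, with a log2 ratio of 0.23 whose interval, -0.21 to 0.68, included 0. Other genes of the list below 10 CPM went to both sides. Afmid had 52 and 178 counts (log2 -1.85, interval -2.33 to -1.40) and Nmnat2 67 and 26 (log2 1.27, interval 0.61 to 2.00), both also named after their values were seen. In their abundance ranges 16.3% and 36.7% of genes were at least 2-fold apart. Of 18 other NAD-consuming enzymes, 13 had a count and 2 were expressed, with a median log2 ratio of -0.24 that turned to 0.03 over all 13. Parp12, a mono-ADP-ribosyltransferase, was far above every sirtuin at 4561 and 6350 CPM, a log2 ratio of -0.51 (-0.52 to -0.50), and Parp6 was at 0.03.

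Regulators of SIRT1 were measured beside it, and 3 of 5 were expressed, with a median log2 ratio of 0.26. Over all 5, with the less abundant Hic1 and Ccar2, the median was -0.10, so its sign rests on the level required. Rps19bp1, whose product (AROS) binds and activates SIRT1, was 1.26-fold higher in the slimming library (72.8 and 56.5 CPM, log2 0.34, interval 0.22 to 0.45). Ccar2, whose product (DBC1) inhibits SIRT1, was low at 23 and 35 counts, and its interval, -1.51 to 0.11, included equal levels. Hic1, a repressor of Sirt1 transcription, had 6 counts in slimming and 63 in control oocytes (log2 -3.37, interval -4.97 to -2.27). Its mean was 1.70 CPM, and of genes between 1 and 3 CPM 36.7% were at least 2-fold apart. Whether Hic1 bears on the Sirt1 level was not tested. The clock genes Arntl (Bmal1) and Clock, which act on Nampt, were at 0.26 (0.19 to 0.34) and -0.10 (-0.22 to 0.03).

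Genes of proteins that sirtuins act on showed no common direction. Of 11 expressed substrates of the nuclear and cytosolic members, 6 had a ratio above that of the median expressed gene and 5 one below it. Their median log2 ratio was 0.08, and 0 were at least 2-fold apart, beside 4.67% of all expressed genes. Foxo1, a FOXO factor deacetylated by SIRT1, stood at 3323 and 2865 CPM (log2 0.18). Nr1h2, the sterol-sensing receptor LXR beta, and Hsf1, the heat shock factor, were highest at 0.82 and 0.45. Hsf1 counted as expressed only through the slimming library, where it was higher (12.5 CPM, against 8.94 CPM in control oocytes). Ep300, an acetyltransferase, and the alpha-tubulin gene Tuba1c were lowest at -0.63 and -0.42. Among 8 expressed substrates of the mitochondrial sirtuins, 3 lay above and 5 below, with a median of -0.05. Glud1, the glutamate dehydrogenase that SIRT4 inhibits, and Sod2, the superoxide dismutase that SIRT3 activates, were higher at 0.51 (0.39 to 0.63) and 0.47 (0.34 to 0.61). Pdha1, a subunit of pyruvate dehydrogenase, was the 1 of the 8 at least 2-fold apart, beside 4.67% of all expressed genes, and it was lower (log2 -1.21, interval -1.45 to -0.98). Sdha, a subunit of succinate dehydrogenase, was at -0.31.

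The other deacetylase family, the zinc-dependent HDACs, was spread to both sides. Of 11 genes 10 had a count and 5 were expressed, 2 above the median expressed gene and 3 below it, with a median log2 ratio of -0.18. Of the 5, 0 were at least 2-fold apart, beside 4.67% of all expressed genes. Hdac6, which like SIRT2 deacetylates tubulin, was highest at 16.8 against 11.3 CPM (log2 0.54, interval 0.30 to 0.79). Hdac2 was level at 0.04 and Hdac3 at -0.18. Hdac8 and Hdac4 were lowest at -0.54 (-0.80 to -0.28) and -0.80 (-1.10 to -0.51). Hdac4 stood at 7.49 CPM in slimming and 12.8 CPM in control oocytes. It counted as expressed only through the control library, where it was higher, so it entered the median by that filter.

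**Figure D4:**
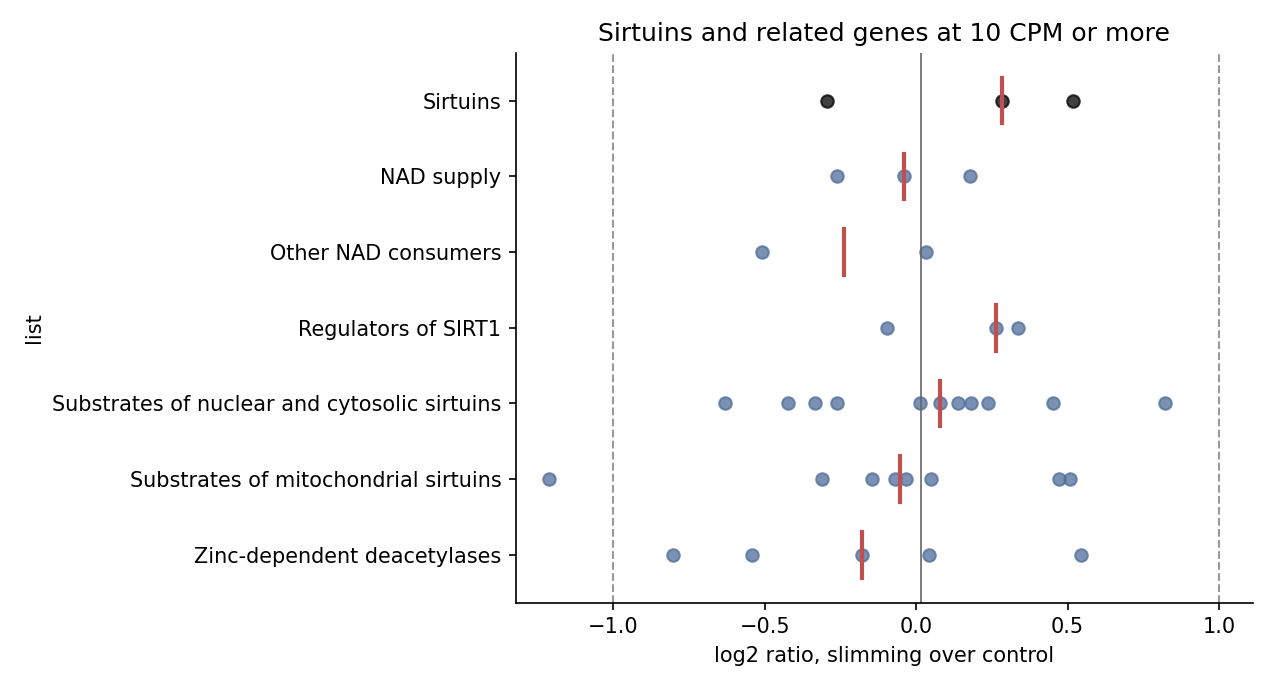
Log2 ratio of slimming over control for each expressed gene (at least 10 CPM in at least 1 library) of the sirtuin family (black) and of 6 related lists (blue); red bars are medians, the grey line is the median of all expressed genes at 0.02, and dashed lines mark 2-fold. The 3 expressed sirtuins lie between -0.30 and 0.52, and Pdha1, at -1.21, is the single point past 2-fold.

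The libraries held 20947962 counts (slimming) and 20242289 counts (control). All 12 oocyte markers were detected in both, together at 105764 and 106441 CPM, most of it from H1foo and Gdf9. Of these markers the zona pellucida genes Zp3, Zp1 and Zp2 were higher in slimming oocytes, at log2 1.03, 0.94 and 0.81, and the other 9 lay between -0.12 and 0.25. Leaving out the 1 gene that made up most of each sum, the summed counts of markers of all 3 other cell types were lower in slimming oocytes. Markers of cumulus and granulosa cells summed to 41.2 and 54.3 CPM, with 12 and 8 of 15 at 0, Fshr, Foxl2 and Amhr2 among them in both libraries. Without Cyp19a1 they had 141 counts in slimming and 306 in control oocytes, most of them from Nr5a2 (136 and 204). Inha was at 0 and 63 and Cyp11a1 at 0 and 17. Immune markers summed to 27.6 and 45.4 CPM, with 9 and 2 of 14 at 0, Cd74 and Cd14 among them in both libraries. Without H2-Aa they had 204 and 368 counts, with Fcer1g at 0 and 62 and Tyrobp at 0 and 57. The list was not uniform: Cd68 had 79 and 103 counts, C1qb 38 and 38, and Laptm5 86 and 75. Markers of the oviduct epithelium summed to 245 CPM in each library, with 4 and 1 of 8 at 0. Without Cdh1 they had 109 and 250 counts, with Tppp3 at 93 and 210. The part of such cells in the sirtuin values was not tested.

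In the authors' deposited table, 4 of the 7 sirtuins (Sirt1, Sirt3, Sirt6 and Sirt7) were marked at a p-value of 0.001, beside 30.4% of all genes with a count. No replicate stands behind that p-value, which sets the reads of 1 library against those of another. In the authors' deposited table the z-score, positive where slimming was higher, was 4.85 for Sirt3, 4.07 for Sirt6, 3.88 for Sirt1 and -4.35 for Sirt7. The remaining z-scores in the authors' deposited table were 3.06 for Sirt5, 1.09 for Sirt4 and -2.51 for Sirt2.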

How the data were processed

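Messenger RNA of 9 pooled metaphase II oocytes per group was primed with an oligo(dT) stretch of 24 bases and amplified for 18 and then 14 PCR cycles before SOLiD 4 sequencing, per the labels' protocols. No molecular identifiers are named there, so intervals cover counting error only. Raw counts per gene were deposited by the authors on genome build mm9, per the submitters' processing notes; for the aligner, the counter and the use of strand nothing is stated there. The authors also deposited log2 ratios, a z-score (a score per gene) and p-value and q-value columns, per the file headers. Blank entries (18210 genes) were read as no count.

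Symbols and transcript lengths came from GENCODE vM21 (GRCm38), which matched 16913 of 18017 genes with a count. TMM factors (1.01 slimming, 0.989 control) came from edgeR 4.0.16 and size factors from DESeq2 1.42.0 in R 4.3.3. Log2 ratios used 0.5 added to each count, with exact Clopper-Pearson 95% intervals of the slimming share. They were checked on simulated counts with counting error alone, for genes with a mean of at least 10 CPM. That check covers neither variation beyond counting error nor the less abundant sirtuins. Other work used Python 3.11.15, numpy 2.4.6, scipy 1.17.1, pandas 2.3.3 and matplotlib 3.10.9. Each group is 1 library, so differences are given by size, without a test. From each related list the 2 highest and 2 lowest ratios and the most abundant gene among expressed members were named, and every gene of the list of 5 regulators. With 1 ratio per gene, no genes were ranked by likeness to a sirtuin. The members and lists were chosen with earlier results of these data known. The per-kilobase order on coding transcripts, the sums by compartment under other scalings, and the counts of all members past 2-fold under other scalings and on the authors' ratio were added after the data were seen.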

Additional observations from a re-analysis of the deposited data

How the results depend on the processing

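All 35 alternative ratios of the 7 sirtuins (3 other scalings, 1 added to each count, the authors' scaled ratio) kept their sign and stayed within the counting interval of the reported value, and the order of levels was the same without division by length and per coding transcript. The number of sirtuins at least 2-fold apart was 0 among expressed members. With all members it was 2 (Sirt2 and Sirt3), also with 1 added to each count, 3 (Sirt5 too) with total-count scaling, DESeq2 size factors or the authors' ratio, and 1 (Sirt2) with upper-quartile scaling. Genes at least 2-fold apart numbered 267, against 2025 from 1 CPM upward, 6960 with no filter and 999 at 1.5-fold. With all members that had a count, the median of the NAD supply list was -0.40 in place of -0.04, and 2 medians changed sign, that of the SIRT1 regulators from 0.26 to -0.10 and that of the other NAD consumers from -0.24 to 0.03. Other scalings moved the median of the expressed genes by -0.05 to 0.03. No paired analysis was possible because the labels give no replicate numbers and each group is 1 library, which also leaves no replicate to leave out. Depth limits Sirt2 and Sirt5 most.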

Other observations

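A few genes around the sirtuins had counts in 1 library only. They were named after their values were seen, as the members of the related lists with at least 10 counts in 1 library and 0 in the other. Naprt, which starts NAD synthesis from nicotinic acid, and Parp9, an ADP-ribosyltransferase family member, each had 0 counts in slimming and 23 in control oocytes. With 3 counts per library taken as the floor, both were at least 7.93-fold lower in slimming oocytes; with the counting error of the 23 counts included, the 95% interval reaches down to 6.08-fold. Crtc2, a CREB coactivator, had 15 counts in slimming and 0 in control oocytes, at least 4.83-fold higher against that floor (3.39-fold at the interval's lower end). Hdac11 had 11 and 0 counts, at least 3.54-fold higher against it (2.37-fold at the lower end). Such genes were not rare among all 18017 genes with a count, of which 294 (1.63%) had at least 10 counts in the control library alone and 170 (0.944%) in the slimming library alone.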
